A study of Sus scrofa with 15 samples.

Results

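The solute carriers (SLC) are the large group of membrane proteins that move amino acids, ions, metals, nucleotide sugars, vitamins and other small solutes across the plasma membrane, the mitochondrial inner membrane and the membranes of the secretory pathway. They were followed here in Longissimus muscle, the long muscle of the back, of pigs. Members were the array probes with an SLC symbol, without the glucose (SLC2A) and monocarboxylate (SLC16A) families, SLC25A4, SLC25A20, SLC27A1 and SLC9A3R1, that the scanner software marked as well above background on 7 or more of the 15 arrays. That gave 135 probes of 73 genes, out of 43603 non-control probes and 4650 tested genes. Another 32 probes fell short of the detection rule, and 12 of the 85 symbols had no member, among them SLC15A1, SLC7A3, SLC30A8, SLC6A14, SLC22A8, SLC10A1, SLC8A3, SLC24A4, SLC1A1, SLC18A1 and SLC26A3. Just inside the detection rule were SLC22A13 and SLC7A11, each on 8 arrays, and just outside it was SLC15A1, on 6 arrays. One member, SLC9A3R2, carries an SLC symbol but is a scaffold protein that binds transporters.

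The pigs came from 2 lines, low_RFI (strain RFIneg, n = 7) and high_RFI (strain RFIpl, n = 8), that differ in residual feed intake, the feed eaten beyond what maintenance and growth are predicted to need. All weighed 20 kg and were fed ad libitum, and each pig had its own array. The labels give no sex, litter or other allele, and nothing about which cells of the tissue the RNA came from. Each array had 61.7% to 79.4% of its probes well above background, and 0 were saturated. Every one of the 4 slides carried arrays of both lines, but few pigs of each. On slide 2 the only low_RFI pig was replicate 1. Differences within the 4 slides, given below in slide order, are therefore not separate tests. The numbers in the array names ran from 1 to 8 (n = 8) or from 55 to 62 (n = 7), also with both lines in each. The labels do not say what those numbers mark. As a check of the tissue, 8 of 9 skeletal muscle markers were tested, and their mean level per pig was 8.58 to 9.0. Of the other cell types, 5 of 6 adipocyte, 6 of 6 endothelial, 3 of 5 fibroblast, 3 of 6 leukocyte, 4 of 5 nerve and 0 of 5 erythrocyte markers were tested, and none passed between lines. The 3 fibroblast markers all had the higher mean in low_RFI (largest for LUM, log2 difference 0.45, limma adjusted p = 0.694), and their part in the results below was not tested.

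Muscle takes up amino acids to build protein and releases others, chiefly glutamine, and its amino acid carriers work in a few linked systems. Sodium-coupled SLC38 carriers bring in neutral amino acids, exchangers of the SLC7 family trade an amino acid inside for another outside, and several of these work only in a pair with a heavy chain, SLC3A1 or SLC3A2. Mitochondrial carriers of the SLC25 family pass phosphate, nucleotides and cofactors into and out of the matrix. Carriers of the SLC35 family load nucleotide sugars into the secretory pathway, and the SLC30 and SLC39 families move zinc in opposite directions across membranes.

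The array reads each gene through 60-base probes. The probes of the 4 SLC genes at an unadjusted p under 0.05 between lines are shown first, by bases 1 to 30 as the array files give them, because every value for these genes rests on them. No genome build comes with the files, so no position is given.
SLC38A4: agaaaagagaaactgatctaattcccatct
SLC7A11: cagacagaataaccagaacattacaaataa
SLC34A3: gtggacttctgactcactcgggtggctttc
SLC25A3: aGATTGGCACTCTGACTGCACTACAGTGGT
SLC25A3, another probe: tcatGATTGGCACTCTGACTGCACTACAGT
The capitals mark bases that lie in a run of at least 16 shared by the 2 SLC25A3 probes, which overlap over 56 of their 60 bases. SLC38A4, SLC7A11 and SLC34A3 had 1 probe each, so no other probe bears on their values. SLC25A3 had 10, of which 7 overlapped another probe of the gene. In all, 36 of the 73 genes had at least 2 member probes, and in 8 of the 36 some of those probes overlapped, so probes of a gene are not independent readings of it.

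The comparison asked which transporters differ in muscle RNA between the RFI lines. Levels below are log2 of the processed signal after subtraction of the 75th percentile of each array, and a difference is low_RFI minus high_RFI. None of the 73 genes passed limma at an adjusted p under 0.05, a rule that called 0.0215% of all 4650 genes tested (1 gene). In total 4 of 73 (5.48%) were at an unadjusted p under 0.05, against 7.16% of all genes: SLC7A11 with the higher mean in low_RFI, where 4.13% of all genes were called, and SLC38A4, SLC34A3 and SLC25A3 with the higher mean in high_RFI, where 3.03% were. SLC7A11 became a member mainly through low_RFI, being detected in 6 of 7 pigs there and in 2 of 8 of high_RFI, so its place in this count supports nothing; 3 SLC genes remain without it. The lines overlapped in all 73 genes, while 0.151% of all genes had lines that did not overlap. Over single probes, 6 of the 135 members (4.44%) were at an unadjusted p under 0.05, beside 6.64% of all probes tested, and 0 of 31988 probes passed limma. The mean was higher in low_RFI for 37 genes and in high_RFI for 36, beside 54.6% of all genes higher in low_RFI, with a median difference of 0.00024 beside 0.014 over all genes. With normexp background correction that split moved, and 27.4% instead of 50.7% of the SLC genes had the higher mean in low_RFI, beside 44.4% of all genes. Differences beyond 1.2-fold were found in 15 of 73 genes (20.5%, with SLC7A11 among them), beside 14.5% of all genes. The median SD within lines was 0.297, beside 0.258. In bulk tissue, fewer cells of a type and less RNA per cell cannot be told apart.

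**Figure D1:**
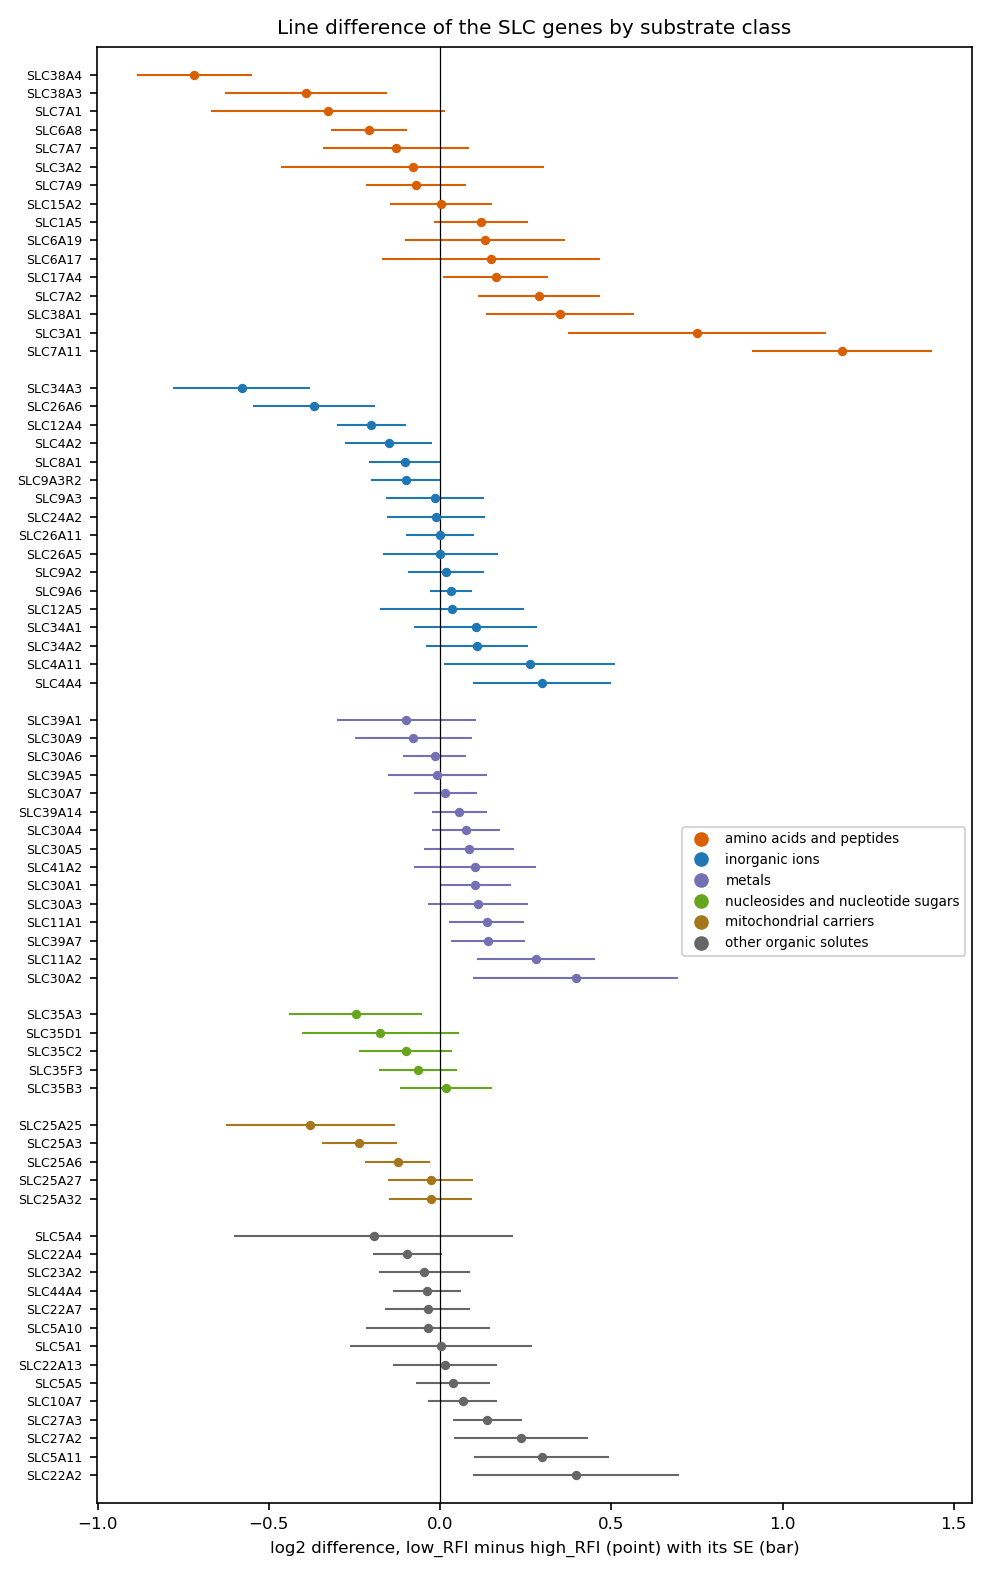
Log2 difference between lines (x axis, low_RFI minus high_RFI; point, with its SE as a bar) of 72 SLC genes (y axis), coloured by substrate class. The amino acid transporters SLC38A4 (-0.72) and SLC7A11 (1.17) mark the ends, and the 5 mitochondrial carriers shown lie below 0. The SLC7A11 probe was dim and met the detection rule mainly through low_RFI.

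Amino acid and peptide transporters held 7 of the 15 SLC genes beyond 1.2-fold. That was 43.8% of the 16 genes of the class, beside 14.5% of all genes. Pigs of a line also varied more in this class, with a median SD of 0.442 beside 0.258 over all genes. The 7 include SLC7A11, whose probe was dim and met the detection rule mainly through low_RFI. The place of SLC7A11 in this count supports nothing. With normexp background correction SLC7A11 (0.027), SLC38A1 (0.092) and SLC7A1 (-0.26) lay within 1.2-fold. SLC38A4, a sodium-coupled carrier of neutral amino acids, had the smallest p toward high_RFI. Its level in low_RFI was -0.13 at the lowest, 0.33 at the median and 0.86 at the highest, and in high_RFI it was 0.75, 0.91 and 1.64. The lines overlapped only through low_RFI replicate 4, at 0.86, and 3 of 56 pairs of a low_RFI and a high_RFI pig had the low_RFI pig higher. The means were 0.33 ± 0.35 (SD, n = 7) and 1.05 ± 0.33 (SD, n = 8), a difference of -0.72 ± 0.17 (SE), or 1.65-fold (limma adjusted p = 0.218). The difference was -0.74, -0.44, -1.15 and -0.49 within the 4 slides and -0.65 and -0.81 within array numbers 1 to 8 and 55 to 62. Over 30 alternative settings it ran from -0.81 to -0.59, with an adjusted p from 0.174 to 0.422.

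SLC7A11 is the light chain of the cystine and glutamate exchanger, which feeds cystine to glutathione synthesis. Its level was -5.22 at the lowest, -4.39 at the median and -3.86 at the highest in low_RFI, and -7.03, -5.53 and -5.15 in high_RFI. Only low_RFI replicate 5 lay below any high_RFI pig, and 55 of 56 pairs had the low_RFI pig higher. The means were -4.50 ± 0.48 (SD, n = 7) and -5.68 ± 0.60 (SD, n = 8), a difference of 1.17 ± 0.26 (SE, limma adjusted p = 0.214). No fold is drawn from it, because the probe was dim: the processed signal was 10.1 to 27.1 in low_RFI and 3.17 to 12.4 in high_RFI, and it was well above background in 6 of 7 and in 2 of 8 pigs, so that it met the detection rule mainly through the line in which it was high. With normexp background correction the difference was 0.027 (adjusted p = 0.973, within 0.121 to 0.973 over 28 alternatives). Within the 4 slides it was 1.96, 1.53, 0.21 and 1.32, and within the runs of array numbers 1.25 and 1.06.

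The heavy chains that pair with such light chains overlapped between the lines. SLC3A2, the partner of SLC7A11 and of several other SLC7 carriers, averaged 2.19 ± 0.65 (SD) in the 7 low_RFI pigs and 2.27 ± 0.92 (SD) in the 8 high_RFI pigs. Its difference of -0.081 (limma adjusted p = 0.999) turned to 0.039 with the mean of its probes and to 0.064, 0.091 and 0.11 without low_RFI replicate 7, high_RFI replicate 3 and high_RFI replicate 4. SLC3A1, the heavy chain of the carrier of cystine and basic amino acids, had levels of -2.50, -1.44 and -0.32 (lowest, median and highest) in low_RFI and -3.52, -2.01 and -1.37 in high_RFI. The lines overlapped widely, with the low_RFI pig higher in 40 of 56 pairs. Its difference was 0.75 ± 0.38 (SE, limma adjusted p = 0.746), or 0.41 with normexp, and all 3 of its probes were higher in low_RFI (0.75 to 0.85), of which 2 overlap over 56 bases. SLC7A9, the light chain that SLC3A1 pairs with, gave -0.070.

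Among the other amino acid carriers, members of the same family lay on both sides. SLC38A3, a carrier of glutamine, gave -0.39 ± 0.24 (SE) with levels of -0.28, 0.89 and 1.10 in low_RFI and 0.36, 1.05 and 1.78 in high_RFI (lowest, median and highest). All 3 of its probes were lower in low_RFI, from -0.39 to -0.12; it was named after its values were seen. Without low_RFI replicate 7 it gave -0.22. SLC38A1, another carrier of glutamine and other neutral amino acids, gave 0.35 ± 0.22 (SE), with 40 of 56 pairs higher in low_RFI. It was 0.092 with normexp and 0.20 without low_RFI replicate 6, the pig with its highest level (-1.59). The carriers of cationic amino acids gave 0.29 for SLC7A2 and -0.33 for SLC7A1, the latter -0.18 without high_RFI replicate 3 and -0.12 without high_RFI replicate 4. The creatine carrier SLC6A8 gave -0.21, with 11 of 56 pairs higher in low_RFI. The limma adjusted p of these 5 genes was 0.761 to 0.948.

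**Figure D2:**
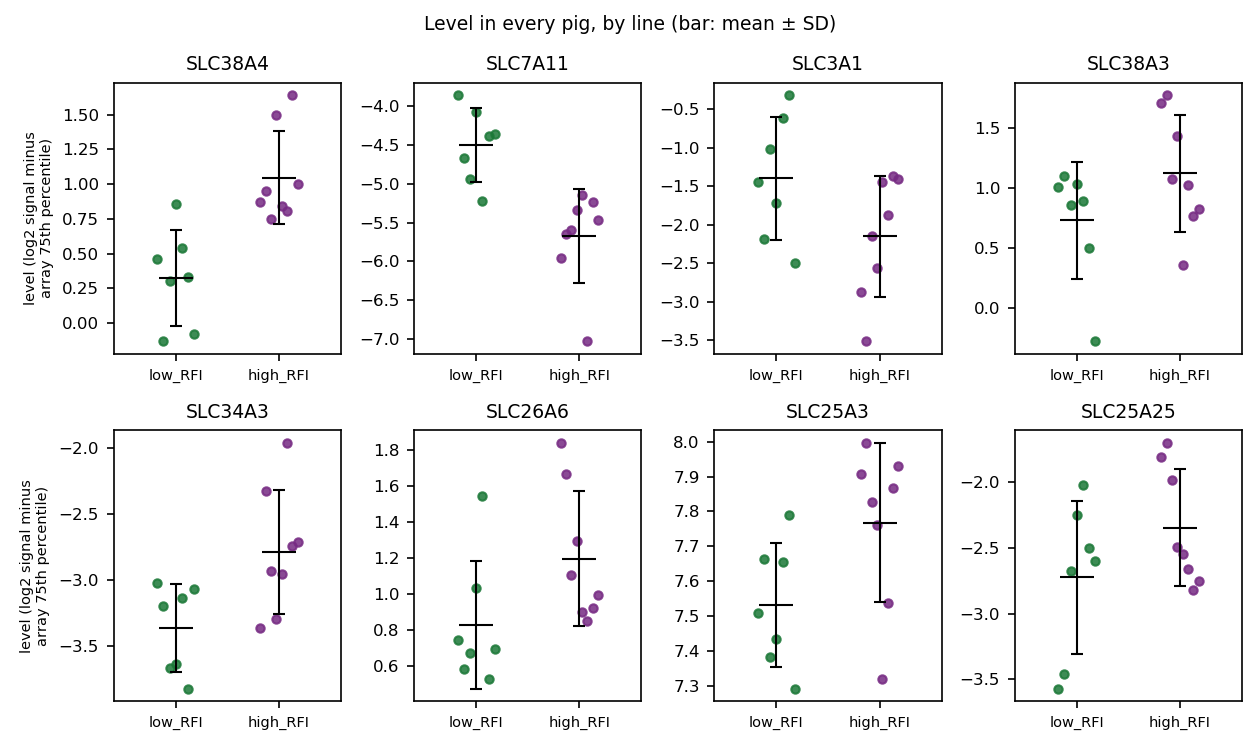
Level in each pig (y axis, level on the log2 scale; points) of 8 SLC genes in low_RFI (n = 7) and high_RFI (n = 8), with mean and SD as bars. The lines overlap in every panel, with 3 of 56 pairs out of order in SLC38A4 and 1 of 56 in SLC7A11. The SLC7A11 probe was well above background in 6 of 7 low_RFI and 2 of 8 high_RFI pigs. It met the detection rule mainly through low_RFI, so its pairs rank signals near background.

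Pigs of the same line also varied in this class. Its median SD within lines was 0.442, and it held 4 of the 5 SLC genes of largest SD. SLC3A2 ranged over 2.78, SLC3A1 over 3.20, SLC7A1 over 2.32 and SLC6A17, a neutral amino acid carrier known from synaptic vesicles, over 2.38. SLC7A1 was high in 3 pigs of high_RFI, at 2.15 in replicate 3, 2.57 in replicate 4 and 1.82 in replicate 8, while no other pig was above 1.33. The levels of SLC3A2 come from 1 of its 2 probes. The other probe gave a line difference of 0.16 and was not followed by pig. SLC3A2 was highest in high_RFI replicates 4 and 3 (3.58 and 3.48), followed by low_RFI replicates 1 and 4 (3.08 and 2.94). The serine synthesis enzyme PSAT1, which like SLC3A2 is known to be induced by the transcription factor ATF4 when amino acids are short, was highest in the same 4 pigs: 3.04 in high_RFI replicate 3, 2.89 in high_RFI replicate 4, 2.87 in low_RFI replicate 1 and 1.92 in low_RFI replicate 4. No other pig exceeded 1.26. PHGDH, the first enzyme of that pathway, was highest in high_RFI replicate 3 (1.38) and low_RFI replicate 4 (0.73), but was -0.22 in high_RFI replicate 4 and -0.67 in low_RFI replicate 1, both below low_RFI replicate 2 (-0.031). It was lowest in high_RFI replicate 5 (-3.33), the pig in which SLC3A2 was also lowest (0.80). All 4 pigs with high SLC3A2 and PSAT1 had array numbers from 1 to 8. The transcription factors ATF4 and DDIT3 were not highest in these pigs: ATF4 was 7.60 to 7.96 in them and 7.39 to 8.00 in the others, and DDIT3 was 2.30 to 2.42 in them and highest, at 3.06, in high_RFI replicate 8. The mitochondrial serine hydroxymethyltransferase SHMT2 was highest in low_RFI replicates 2 and 3 (1.32 and 1.25), outside these 4 pigs. All these values are RNA levels. The pattern of SLC3A2 and PSAT1 was seen in the data and was not tested.

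**Figure D3:**
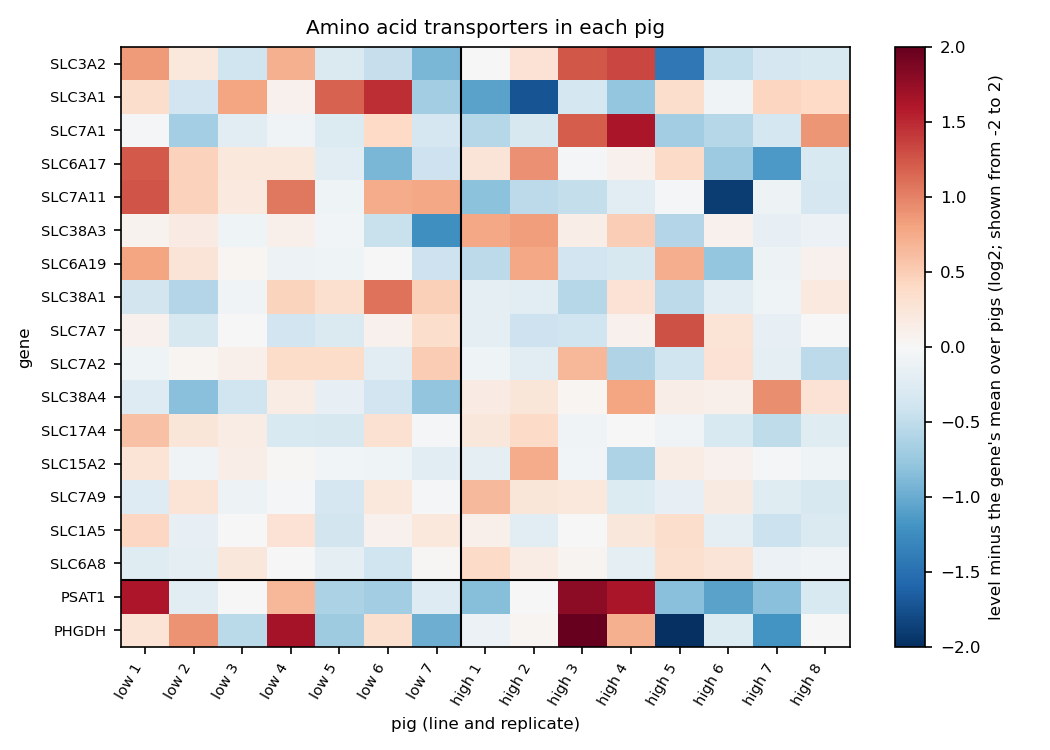
Level minus the gene's mean over the 15 pigs (colour, log2, shown from -2 to 2) of the 16 amino acid and peptide transporters, ordered by SD within lines, with PSAT1 and PHGDH below the line; columns are pigs. SLC3A2 and PSAT1 are highest in the same 4 pigs, 2 of each line.

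The amino acid response list held 22 genes outside the SLC families that are known to respond to amino acid shortage or to serve cystine and glutathione use, and 11 had a tested probe. Of these 6 had the higher mean in low_RFI and 5 in high_RFI, with a median difference of 0.051, and 0 were at an unadjusted p under 0.05. ATF4 itself gave -0.011. The smallest p values belonged to DDIT4, an inhibitor of mTORC1 signalling (-0.30), to SHMT2, the mitochondrial serine hydroxymethyltransferase (0.16), and to the transcription factors CEBPB (-0.16) and DDIT3 (-0.11). PSAT1 gave 0.13 and PHGDH 0.25.

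Inorganic ion transporters, 17 genes with the scaffold protein SLC9A3R2 counted among them, were split between the lines. Of these 8 were higher in low_RFI (1 of 17 with normexp), with a median difference of -0.00034. SLC34A3, a sodium-coupled phosphate carrier, had levels of -3.83, -3.20 and -3.02 (lowest, median and highest) in low_RFI and -3.37, -2.84 and -1.96 in high_RFI. No low_RFI pig was above -3.02, while 6 of 8 high_RFI pigs were. The difference was -0.58 ± 0.20 (SE, limma adjusted p = 0.537), with 8 of 56 pairs higher in low_RFI, or -0.35 with normexp, and it kept its sign in all 4 slides (-0.85, -0.38, -0.39 and -0.53). SLC26A6, an exchanger of chloride for bicarbonate and other anions, gave -0.37 ± 0.18 (SE) and -0.44 from its other probe. That difference lay in array numbers 1 to 8 (-0.72) and was 0.0055 in 55 to 62. The potassium and chloride cotransporter SLC12A4 gave -0.20, with -0.33 and -0.037 in those runs, and -0.12 without low_RFI replicate 2. SLC4A4, a sodium and bicarbonate cotransporter, gave 0.30, but 0.030 with normexp and 0.19 without low_RFI replicate 5. It gave -0.14 in array numbers 1 to 8 and 0.81 in 55 to 62. The calcium exchanger SLC8A1 gave -0.10.

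Of the metal transporters 11 of 15 had the higher mean in low_RFI, or 8 of 15 with normexp, with a median difference of 0.083 and a smallest limma adjusted p of 0.816. SLC11A2, the proton-coupled carrier of ferrous iron, gave 0.28 ± 0.17 (SE). Its difference was 0.10 with normexp, 0.18 without either low_RFI replicate 5 or high_RFI replicate 5, and -0.11 from the other probe. SLC11A1, the metal carrier of phagocytes, gave 0.14, and its other probe -0.71, so that their mean gave -0.29. Without low_RFI replicate 3 it gave 0.082. Among the zinc carriers SLC30A2 gave 0.40 (-0.0080 with normexp) and SLC39A7, which releases zinc from the endoplasmic reticulum, gave 0.14, with all 4 of its probes higher in low_RFI (0.0074 to 0.14), and 0.064 without low_RFI replicate 7. The probe that stands for SLC39A14, a carrier of zinc and iron, is shown because of what it shares with other probes, with bases in a run of at least 16 found in probes of other or no symbol in capitals.
SLC39A14: atagctcagcagtTAACGAACCTGACTAGT
It shared such runs with 11 probes that do not carry its symbol, over 27 of its 60 bases, and no other member probe shared with more than 1. It gave 0.056, while the gene's other probe gave -0.066 and the mean of both -0.00517. The length of run was chosen after seeing the data.

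All 5 detected members of the nucleoside and nucleotide sugar class belonged to SLC35, and 4 of 5 had the higher mean in high_RFI (5 of 5 with normexp). The classes follow family numbers, so a gene may carry another substrate: SLC35F3, which is among the 4, has been described as a thiamine transporter, and SLC17A4, counted with the amino acid transporters, may likewise carry other solutes. SLC35A3, which carries UDP-N-acetylglucosamine into the Golgi, gave -0.25 ± 0.19 (SE, limma adjusted p = 0.892), with 3 of 3 probes lower in low_RFI (-0.25 to -0.084), -0.39 without low_RFI replicate 2 and -0.15 without high_RFI replicate 2. SLC35D1, a carrier of UDP sugars in the endoplasmic reticulum, gave -0.17, and -0.32 to -0.096 when 1 pig was left out (-0.32 without high_RFI replicate 6, -0.096 without high_RFI replicate 1). SLC35C2 gave -0.10, and -0.013 without low_RFI replicate 2. SLC35F3 gave -0.065, -0.17 with normexp, 0.019 with the mean of its probes, and -0.013 without high_RFI replicate 2.

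The 5 mitochondrial carriers described here all had the higher mean in high_RFI, with a median difference of -0.12, but none passed. SLC25A3, which brings phosphate into the matrix for ATP synthesis, had levels of 7.29, 7.51 and 7.79 (lowest, median and highest) in low_RFI and 7.32, 7.85 and 8.00 in high_RFI. The lines overlapped over most of their range, since high_RFI replicates 4, 5 and 6 (7.76, 7.32 and 7.54) lay among the low_RFI pigs. The means were 7.53 ± 0.18 (SD, n = 7) and 7.77 ± 0.23 (SD, n = 8), a difference of -0.24 ± 0.11 (SE, limma adjusted p = 0.694), or -0.19 with normexp. Its unadjusted limma p was under 0.05 in 13 of 30 alternatives. All 10 probes, of which 7 overlap another, were lower in low_RFI, from -0.31 to -0.16. The difference was -0.38 within array numbers 1 to 8 and -0.085 within 55 to 62, and 0.0046, -0.15, -0.29 and -0.52 within the 4 slides. SLC25A6, which exchanges ADP for ATP, gave -0.12, or -0.045 with normexp and -0.073 without low_RFI replicate 7, with 6 of 6 probes lower in low_RFI, of which 4 overlap another. SLC25A25, a carrier of ATP-Mg and phosphate, gave -0.38 ± 0.25 (SE), or -0.24 with normexp and also without low_RFI replicate 1, with -0.99 in array numbers 1 to 8 and 0.32 in 55 to 62. The folate carrier SLC25A32 and SLC25A27 each gave -0.028.

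**Figure D4:**
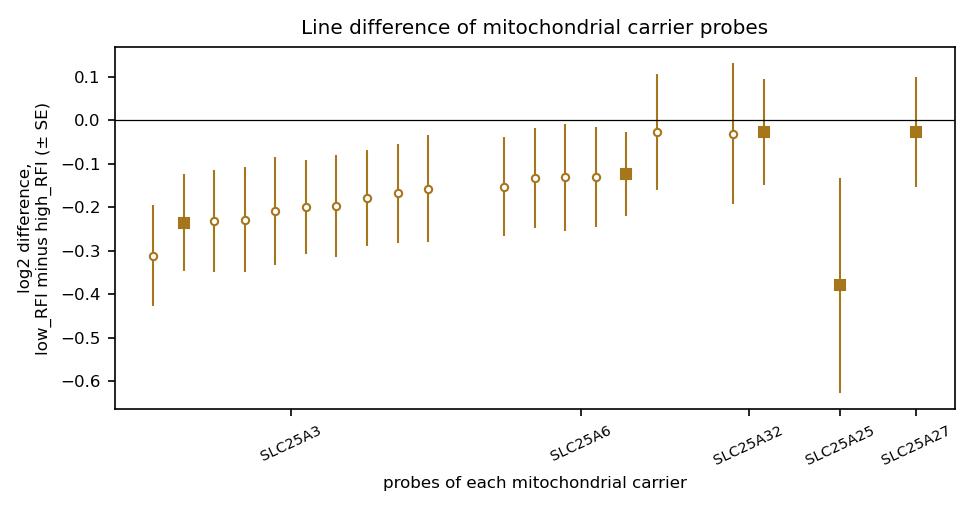
Log2 difference between lines (y axis, low_RFI minus high_RFI, with SE) for each of the 20 probes of 5 mitochondrial carriers (x axis); squares mark the probe that stands for its gene. All 10 probes of SLC25A3 and all 6 of SLC25A6 lie below 0.

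The other organic solute transporters, 14 genes, gave a median difference of 0.0080, with 8 higher in low_RFI. With normexp the median was -0.052, with 6 of 14 higher in low_RFI. SLC5A11, an inositol carrier, gave 0.30 (-0.10 with normexp), and the fatty acid transport proteins SLC27A2 and SLC27A3 gave 0.24 (0.037 with normexp, 0.11 without high_RFI replicate 6) and 0.14 (0.091 without high_RFI replicate 7). The organic cation carrier SLC22A2 gave 0.40, but 0.030 with normexp and 0.065 without low_RFI replicate 2, where its level was -1.15 against -3.80 to -3.13 in the other low_RFI pigs. SLC5A4, of the sodium and glucose cotransporter family, had the largest SD within lines of all 73 genes (0.858). Its difference of -0.19 ran from -0.44 without low_RFI replicate 5 to -0.044 without low_RFI replicate 2.

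Classes were also followed within each pig. The mean over a class of each gene's level minus its mean over pigs ran from -0.17 to 0.29 in low_RFI and from -0.25 to 0.12 in high_RFI for amino acid transporters. For mitochondrial carriers it ran from -0.25 to 0.15 and from -0.20 to 0.36, highest in high_RFI replicates 2 and 3 (0.36 and 0.30). Inorganic ion transporters ran from -0.15 to 0.093 and from -0.13 to 0.33, nucleotide sugar transporters from -0.22 to 0.013 and from -0.11 to 0.30, metal transporters from -0.086 to 0.17 and from -0.14 to 0.11, and the other organic solutes from -0.18 to 0.27 and from -0.14 to 0.15. The ranges of the lines overlapped in all 6 classes. High_RFI replicate 2 was highest in mitochondrial, ion and nucleotide sugar transporters, and its mean over all SLC genes was 0.19, against -0.15 to 0.083 in the other pigs.

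Some transporters differed more between the runs of array numbers than between lines. Taking 55 to 62 minus 1 to 8, 5 of 73 SLC genes passed limma, beside 3.59% of all genes. SLC5A4 was higher in 55 to 62 by 1.18 (adjusted p = 0.0372), with levels of -0.40 to 1.11 in array numbers 1 to 8 and -0.18 to 1.96 in 55 to 62. SLC35C2 was higher by 0.39 (adjusted p = 0.0344), with levels of -1.58 to -0.91 in array numbers 1 to 8 and -0.85 to -0.70 in 55 to 62. SLC3A2 was lower in 55 to 62, at -1.15 (adjusted p = 0.0296), with levels of 1.83 to 3.58 and 0.80 to 1.95. SLC38A3 gave -0.70 (adjusted p = 0.0296) and SLC6A17 -0.89 (adjusted p = 0.0468). The interaction of line and run passed in 0 genes by limma, with 5 SLC genes (6.85%) at an unadjusted p under 0.05, beside 5.63% of all genes, and a smallest adjusted p of 0.862 among SLC genes.

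**Figure D5:**
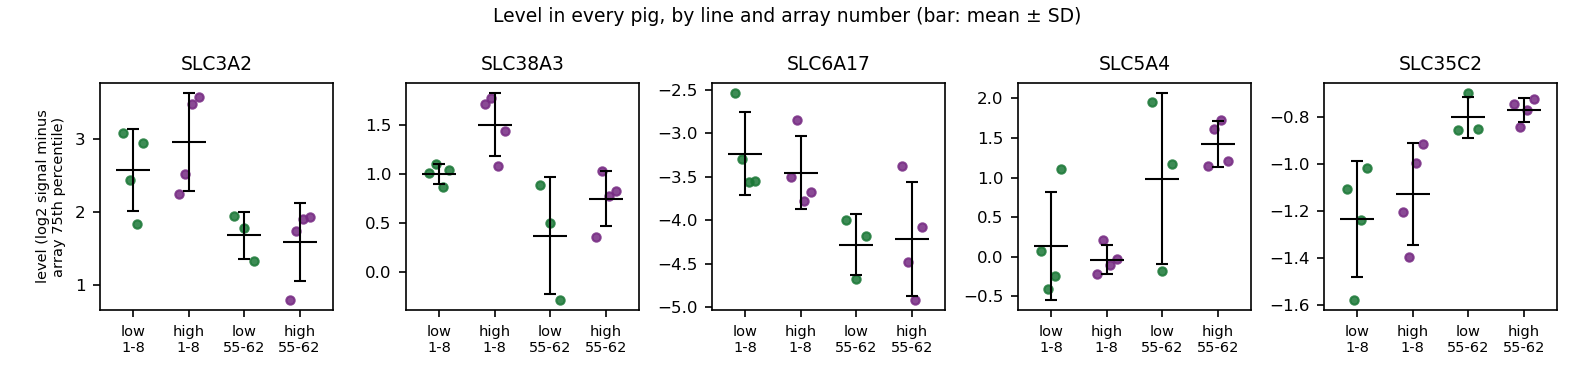
Level in each pig (y axis, level on the log2 scale; points) of the 5 SLC genes that passed between array numbers 1 to 8 and 55 to 62, split by line (x axis), with mean and SD as bars. SLC3A2, SLC38A3 and SLC6A17 are lower and SLC5A4 and SLC35C2 higher in 55 to 62.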

How the data were processed

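Total RNA (150 ng per pig, per the labels' protocols) was labelled with Cy3 and measured on 1-colour Agilent arrays. The scanner values are intensity values deposited after background subtraction by Feature Extraction 10.7.3.1 (protocol GE1_107_Sep09), per the file headers. Flags for well above background and outlier spots are other columns of the same deposited files. The authors' deposited log2 table (R 2.10.0, per the submitters' processing notes) was found to equal log2 processed signal less the median of 29364 spots on that array, with a largest difference of 4.93e-08, and served as an alternative.

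From these, control and non-uniform spots were dropped, spots of a probe averaged and levels taken as log2 processed signal less the 75th percentile of each array. Probes were tested if well above background on at least 7 of 15 arrays with at least 4 values in each line (31988 probes). Symbols came from the files and RefSeq and Ensembl name tables; 12153 probes had 1 symbol, and a gene is its tested probe of highest mean level. Members were taken by the files' own symbols; 69 probes that reach an SLC name only through a synonym or accession were not members. Lines were compared with limma 3.58.1 (lmFit, eBayes, two-sided) in R 4.3.3 over 4650 genes with Benjamini-Hochberg adjustment, threshold 0.05; the fit was tested on simulated data. The number of pigs limits the precision.

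Substrate classes followed SLC family numbers. Genes named were SLC38A4, SLC7A11, up to 6 of smallest p in each direction, up to 4 per class and the 5 of largest SD, plus up to 4 of the amino acid response list; SLC38A3, SLC39A14 and other genes beyond these were named after values were seen. Some items that these rules cover are counted but not reported here. The members and lists were chosen with earlier results of these data known. Alternatives covered background correction (normexp, offset 50), scaling, the deposited values, dim and outlier spots, probes per gene, slide, array number and replicate blocks, the limma model and leaving out each pig.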

Additional observations from a re-analysis of the deposited data

Results flagged for a closer look

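The groups looked at were the pigs of each line for SLC genes named by the rules above. In 4 of 60 groups the highest or lowest pig lay apart from the others by Dixon's criterion, which chance gives in about 1 of 20 groups. SLC7A11 was lowest in high_RFI replicate 6, at -7.03 against -5.96 to -5.15 in the other pigs of the line; it was not well above background in that pig or in 5 others of the line, so these values rank signals near background. SLC22A2 was highest in low_RFI replicate 2, at -1.15 against -3.80 to -3.13. SLC35A3 was highest in the same pig, at 0.10 against -1.14 to -0.68. SLC11A2 was highest in low_RFI replicate 5, at -0.92 against -1.80 to -1.45.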

How the results depend on the processing

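No SLC gene passed between lines under any alternative run (smallest adjusted p 0.121), and leaving out each pig gave 0 to 0. Of 926 differences of 31 named genes under alternatives, 913 kept their direction. The count at an unadjusted p under 0.05 toward low_RFI, 1 with all pigs, was 0 with normexp, with the deposited values (which hold 68 of the 73 genes, without SLC7A11) and with detection on all 15 arrays (63 genes). It was 2 with array number as a block and 2 with array weights, and 1 to 3 leaving out a pig (3 without low_RFI replicate 2). Toward high_RFI the count of 3 became 5 with array number as a block and 2 to 5 leaving out a pig (5 without high_RFI replicate 5). The replicate block gave 2 toward low_RFI and no passing gene. The labels do not say whether the replicate numbers pair the pigs. Deviations of same-numbered pigs from their line means correlated at -0.040 to 0.31. Of the 7 low_RFI pigs 1 correlated best with its own number. Such correlations cannot decide whether the numbers pair pigs.

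Directions turned in 7 genes. Normexp brought 11 of 31 named differences more than 1.5 times nearer 0 in the same direction. With normexp SLC5A11 gave -0.10, SLC30A2 -0.0080 and SLC6A17 -0.081. With the mean of a gene's probes SLC11A1 gave -0.29, SLC35F3 0.019, SLC3A2 0.039 and SLC39A14 -0.00517, and its other probe, an alternative chosen after seeing the data, gave -0.066. Leaving out a pig, SLC3A2 ran from -0.29 to 0.11 and SLC6A17 from -0.043 to 0.31. Without high_RFI replicate 2, 61.6% of SLC genes had the higher mean in low_RFI. Signals near background, as for SLC7A11, SLC5A11 and SLC30A2, limit these values, and the cause of each change was not tested.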

Other observations

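Identical 60-base probes occurred in a pair for SLC38A3 and for SLC44A4. The SD over pigs of the difference between the 2 probes was 0.040 for SLC38A3 and 0.297 for SLC44A4. The line differences of the 2 probes were -0.39 and -0.35 for SLC38A3 and 0.13 and 0.11 for SLC44A4.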
